A study of Mus musculus with 4 samples.

Results

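Cluster 15 is 1 of 17 groups that the authors drew in chromatin accessibility data of PB3, a cell line from a mouse mammary tumor. Its members were the cells with cluster number 15 in the deposited cell table, 580 of 43782 cells in all, and 441 of them (76.0%) came from eribulin libraries. Eribulin cells had received 500 nM eribulin, a drug that blocks microtubule growth, for 72 h and had then recovered for 48 h, for 4 rounds, while untreated cells had received no drug. Both conditions were profiled by droplet ATAC-seq (scATAC, run 1) and by the accessibility readout of a combined RNA and ATAC assay (multiome, run 3). Each condition and protocol had 1 library. The libraries held 16724 eribulin and 9361 untreated scATAC cells, and 8114 eribulin and 9583 untreated multiome cells.

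In ATAC-seq the Tn5 transposase cuts DNA that is not covered, and the length of the fragment between cuts reflects what lay between them. Short fragments come from DNA free of nucleosomes, and longer ones span DNA wrapped around a nucleosome. The ratio of these fragments in a cell, its nucleosome signal, and the excess of cuts at transcription start sites, its TSS enrichment, are widely used to judge the quality of single-cell ATAC-seq data. A cell's depth was taken as its cut sites in peaks, and each library's cluster 15 cells were set against its other cells and against cells of like depth. To set the like depth, each cluster 15 cell was compared with the median of the 20 other cells of its library that were nearest in cut sites. With 1 library per group and cells that are not replicates no test was made, and values are given with exact 95% binomial (Clopper-Pearson) intervals (95% CI), which cover counting error only.

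Before any measure was compared, 10x cell barcodes found in more than 1 library were counted, a count that does not establish the identity of a cell. Gene values were not analysed here, so the cluster was given no cell type. The eribulin and untreated scATAC libraries had 215 10x cell barcodes in common, and the eribulin and untreated multiome libraries had 123; the untreated libraries of both protocols had 1. A barcode also seen in the other condition of the same protocol is called shared here. Shared barcodes were found in 2 of 139 eribulin and 2 of 33 untreated scATAC cells of cluster 15. In the whole scATAC libraries it was 215 of 16724 eribulin and 215 of 9361 untreated cells. In multiome it was 7 of 302 eribulin and 3 of 106 untreated cells of the cluster. In the whole multiome libraries it was 123 of 8114 eribulin and 123 of 9583 untreated cells. Only 1 such barcode was in cluster 15 in both conditions. The part of these cells in the results was not tested.

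Cluster 15 was small in every library and was more frequent with eribulin than without it in both protocols. It held 139 eribulin scATAC cells (0.831%, 95% CI 0.699 to 0.981) and 33 untreated scATAC cells (0.353%, 0.243 to 0.495). In the multiome runs it held 302 eribulin cells (3.72%, 3.32 to 4.16) and 106 untreated cells (1.11%, 0.906 to 1.34). The intervals did not overlap within either protocol, which speaks to these libraries and not to the spread between cultures. The eribulin multiome library alone supplied 52.1% of the cluster.

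On the deposited UMAP, in which neighbouring points are cells with similar open chromatin, the cluster had a compact group and a wide scatter. Of its 580 cells, 368 had most of their 30 nearest neighbours in cluster 15, and these lay in 1 place, at most 1.36 UMAP units from the cluster's median position. They are called the compact group, and the other 212 cells are called scattered. The median distance from the cluster's own median position, 0.784 units, was the third smallest among the 17 clusters, whereas the upper quartile of the distances, 5.93 units, was the largest. The clusters and the map came from the same peaks, so the map describes the cluster and is no independent check of it.

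All 4 libraries were present in the compact group, in unequal shares. In scATAC, 121 of 139 eribulin cells (87.1%, 80.3 to 92.1) and 11 of 33 untreated cells (33.3%, 18.0 to 51.8) were compact. In multiome, 173 of 302 eribulin cells (57.3%, 51.5 to 62.9) and 63 of 106 untreated cells (59.4%, 49.5 to 68.9) were. Compact untreated cells had almost no neighbours outside the cluster, 3 of 330 for scATAC and 10 of 1890 for multiome, counted over cells, and each of these was an eribulin cell.

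**Figure D1:**
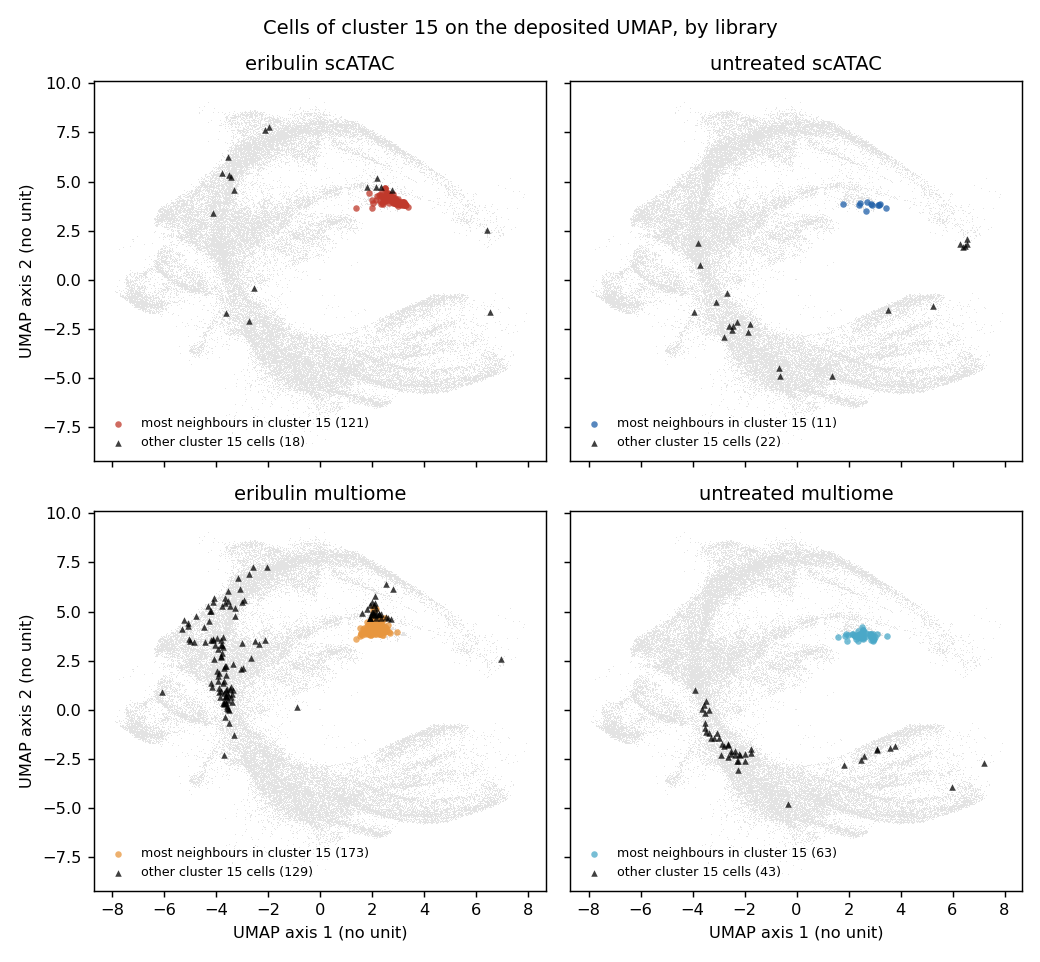
Position of cluster 15 cells on the deposited UMAP (axes without unit), 1 panel per library; grey points are all 43782 cells, coloured circles the cluster 15 cells with most of their 30 neighbours in the cluster, and black triangles its other cells. All 4 libraries contribute to the compact group, while the scattered cells of each condition lie in different areas.

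The scattered cells lay mostly among cells of their own condition. Eribulin cells were 24838 of the 43782 cells on the map, and cells of other clusters were not compared in this way. In the eribulin multiome library, 83.3% of the neighbours that scattered cells had outside cluster 15 came from eribulin libraries. Cluster 0 was the most frequent of their clusters with 43.3%. Cluster 0 held 6561 of all 43782 cells and 6367 of the 8114 cells of that library. In the untreated multiome library, 9.01% of these neighbours came from eribulin libraries, and cluster 6 led with 27.0%. Cluster 6 held 2864 of all 43782 cells and 1411 of the 9583 cells of that library. For scATAC the eribulin share was 80.5% around the 18 scattered eribulin cells and 31.8% around the 22 scattered untreated cells. Some scattered cells lay no farther out than the farthest compact cell, 5 of 18 eribulin against 0 of 22 untreated cells in scATAC, and 21 of 129 eribulin against 0 of 43 untreated cells in multiome.

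Cluster 15 was deep in the scATAC libraries and not in the multiome libraries, so that depth did not mark the cluster as a whole. In scATAC, its eribulin cells had a median of 19698 cut sites (quartiles 13864.5 and 28166), against 6015 in the other eribulin cells. Its untreated scATAC cells had a median of 14341 (quartiles 4468 and 28259), against 7436 in the other untreated cells. The share of cluster 15 cells above the median of the other cells was 93.5% (88.1 to 97.0) in eribulin and 69.7% (51.3 to 84.4) in untreated scATAC.

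The multiome cells of cluster 15 had ordinary depths. Its eribulin cells had a median of 4516 cut sites against 4220.5 in the other eribulin cells, and 53.0% (47.2 to 58.7) of them lay above that value. Its untreated cells had a median of 4445 against 5221 in the other untreated cells, and 47.2% (37.4 to 57.1) lay above. Both intervals include 50%.

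Each library was ranked by depth and divided into 10 groups of equal size. The eribulin scATAC library held most of its cluster 15 cells in the deepest group, 99 of 139 (71.2%, 62.9 to 78.6), where they made up 5.92% of the cells. Each of the other 9 groups of that library was at most 0.957% cluster 15. In the untreated scATAC library the deepest group held 12 of the 33 cells and the shallowest held 6, against 0 in the fourth, 1 in the fifth and 0 in the sixth. In the eribulin multiome library cluster 15 made up 2.59% to 4.69% of every group, with no steady rise or fall along depth.

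**Figure D2:**
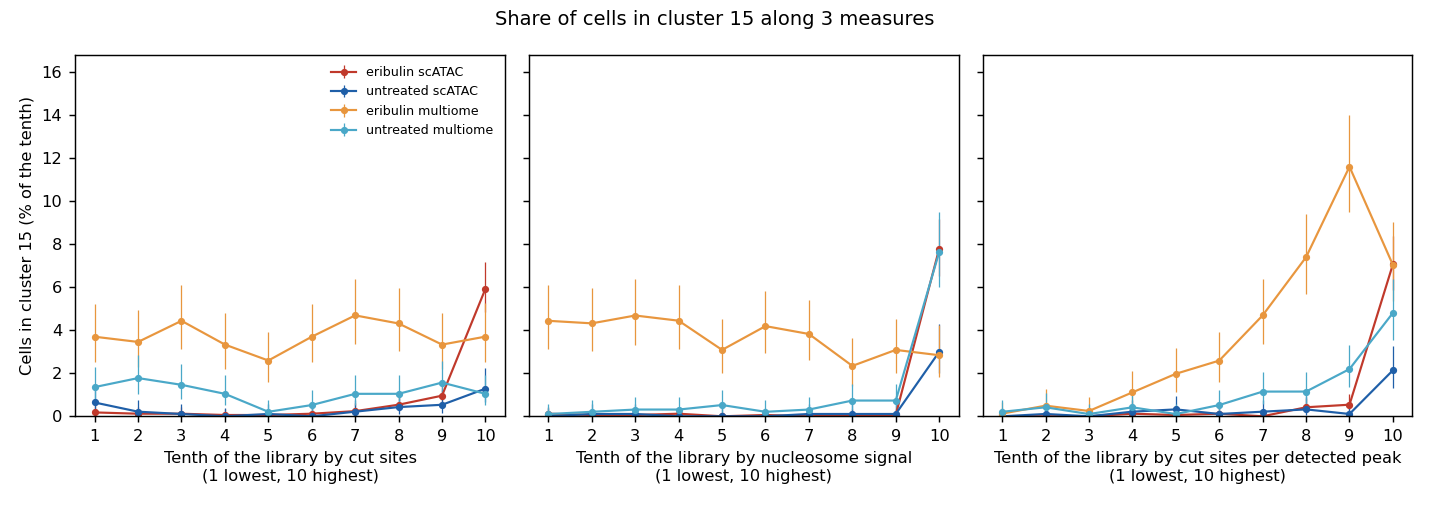
Share of cells in cluster 15 (percent, with exact 95% intervals) in each of 10 equal groups of a library ranked by cut sites, by nucleosome signal and by cut sites per detected peak; lines are the 4 libraries. Depth sets the cluster apart in the eribulin scATAC library, where the deepest group has 5.92%, nucleosome signal in all libraries but the eribulin multiome one, and cut sites per detected peak in all 4.

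The nucleosome signal was raised in cluster 15 in 3 of the 4 libraries. In scATAC its median was 1.72 in eribulin cells of the cluster (quartiles 1.44 and 1.87), against 0.755 in cells of like depth. In untreated scATAC cells of the cluster it was 1.62 (1.38 and 1.84), against 1.06 at like depth. In untreated multiome cells of the cluster it was 1.27 (1.05 and 1.58), against 0.893 at like depth. The eribulin multiome cells of the cluster did not share this, with a median of 0.652 (0.596 and 0.710) against 0.669 at like depth.

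Cell by cell, the signal was above the median of like cells in 132 of the 139 eribulin (CI 89.9 to 98.0%) and 31 of the 33 untreated scATAC cells of cluster 15 (93.9%, 79.8 to 99.3). In the multiome libraries that share was 45.0% (39.3 to 50.8) in eribulin and 91.5% (84.5 to 96.0) in untreated cells. The median ratio to like cells was 2.25 in eribulin scATAC, 1.52 in untreated scATAC, 0.976 in eribulin multiome and 1.42 in untreated multiome cells. When every cluster with 20 or more cells in a library was compared in this way, cluster 15 ranked highest of 11 in eribulin scATAC, of 11 in untreated scATAC and of 10 in untreated multiome cells, where the highest ratio of another cluster was 1.12. In eribulin multiome cells it ranked 8 of 9.

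**Figure D3:**
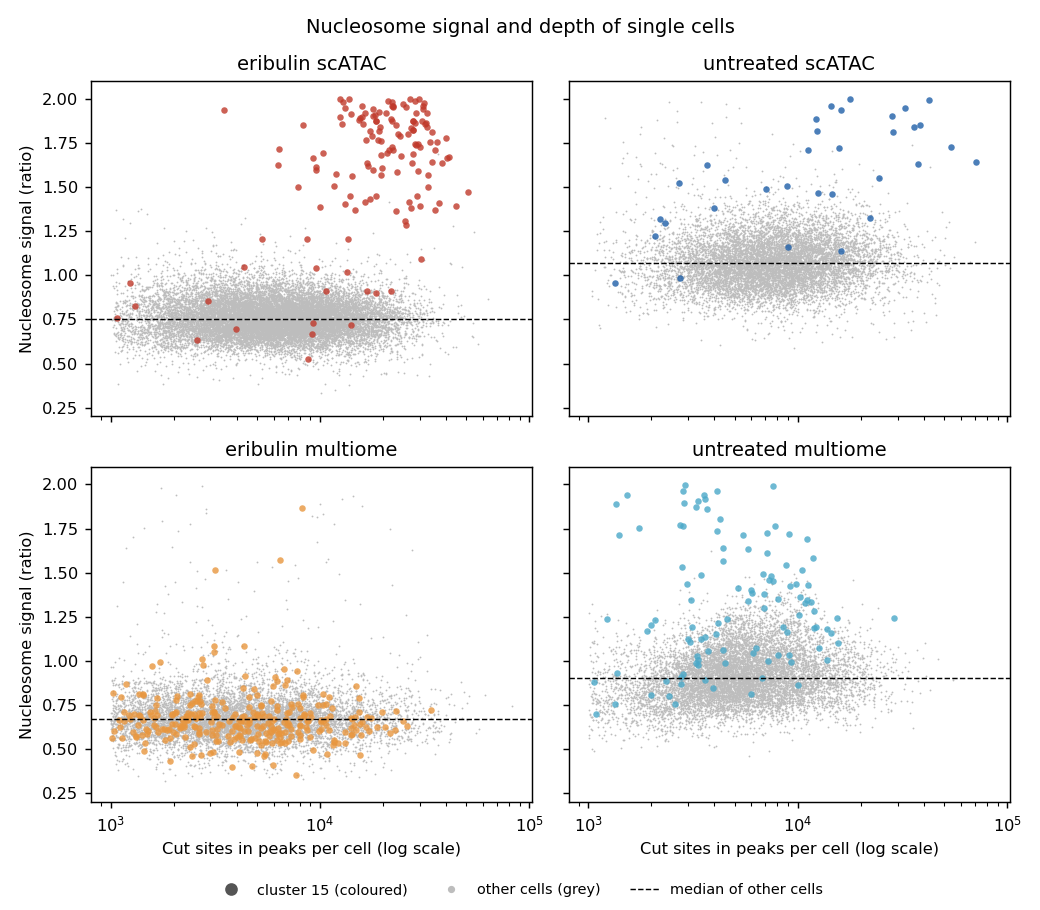
Nucleosome signal (ratio) of single cells against their cut sites in peaks (log scale), 1 panel per library; coloured points are cluster 15 cells, grey points all other cells, and the dashed line is the median of the other cells. Cluster 15 stands above the other cells in eribulin scATAC, untreated scATAC and untreated multiome cells, and within them in eribulin multiome cells, where its median is 0.652.

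The cells with the highest nucleosome signal of a library were nearly all in cluster 15 in 2 of the libraries and mostly outside it in the other 2. Above a signal of 1.5, a limit chosen after the values were seen, lay 100 eribulin scATAC cells, of which 99 were in cluster 15 (99.0%, 94.6 to 100). In the untreated scATAC library 21 of 107 such cells were in cluster 15 (19.6%, 12.6 to 28.4), and 50 of the 86 others were in cluster 4. Cluster 4 held 2921 of the 9361 cells of that library. In the multiome libraries it was 3 of 34 eribulin cells (8.82%, 1.86 to 23.7) and 31 of 32 untreated cells (96.9%, 83.8 to 99.9). Of the 31 other eribulin multiome cells 25 were in cluster 0, which held 6367 of the 8114 cells of that library. Cluster 15 made up 0.831% of all eribulin scATAC and 1.11% of all untreated multiome cells, so its share of such cells was far higher there. In untreated scATAC it made up 0.353% of all cells, and its 19.6% of such cells was also far higher. In eribulin multiome cells its share of the whole library, 3.72%, lay inside the interval of the 8.82%.

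No deposited cell reached a nucleosome signal of 2. The highest value was 1.99971, although the series' design text gives a limit of 10. In scATAC, cluster 15 came close to that edge, with 71.2% of its eribulin and 63.6% of its untreated cells above 1.5. In multiome, 0.993% of its eribulin and 29.2% of its untreated cells were above 1.5. Cells at or above 2 were not analysed here, and their part in these values was not tested.

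Inside the cluster, the nucleosome signal was lowest in the shallowest cells in the 3 libraries where it was raised. In the shallowest, middle and deepest groups of equal size, its median was 1.5, 1.79 and 1.74 in eribulin scATAC cells and 1.38, 1.72 and 1.81 in untreated scATAC cells. In eribulin multiome cells it was 0.669, 0.639 and 0.649, and in untreated multiome cells 1.17, 1.39 and 1.31. Across the 33 untreated scATAC cells of the cluster, cut sites and nucleosome signal had a rank correlation of 0.64, against 0.073 across the 9328 other cells of that library. In the cluster it was 0.26 across the 139 eribulin scATAC cells, -0.069 across the 302 eribulin multiome cells and 0.073 across the 106 untreated multiome cells, against -0.021, 0.0029 and 0.19 across the other cells of those libraries. These values describe cells of 1 library each, and signal and depth are counted from the same fragments.

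What all 4 libraries had in common was fewer distinct peaks for the cut sites a cell had. At like depth, 571 of the 580 cluster 15 cells had fewer peaks detected than the median of their like cells, 1 had the same number and 8 had more. The share with more was 0 of 139 cells in eribulin scATAC, which allows up to 2.16%, and 6.06% (0.743 to 20.2) in untreated scATAC. It was 1.99% (0.733 to 4.27) in eribulin multiome cells and 0 of 106 in untreated multiome cells, which allows up to 2.83%. Clusters were built from the peaks, so this describes how the cluster was composed and tests nothing.

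Put the other way, cut sites of cluster 15 cells were piled up on fewer peaks. Cut sites per detected peak had a median of 1.43 in eribulin scATAC cells of the cluster (quartiles 1.31 and 1.55), against 1.29 at like depth. In untreated scATAC cells of the cluster it was 1.30 (1.16 and 1.48), against 1.23. In eribulin multiome cells of the cluster it was 1.13 (1.1 and 1.17), against 1.08 (1.05 and 1.11), and in untreated multiome cells of the cluster 1.17 (1.12 and 1.24), against 1.08 (1.06 and 1.14).

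The excess was small for each cell and almost without exception. The median ratio to like cells was 1.09, 1.07, 1.04 and 1.07 in eribulin scATAC, untreated scATAC, eribulin multiome and untreated multiome cells, and 574 of the 580 cells lay above their like cells. Cluster 15 ranked highest in every library among the clusters so compared, and the next cluster reached 1.01 at most. In the eribulin multiome library, where depth and nucleosome signal did not set the cluster apart, its share was 0.123% in the lowest of 10 equal groups ranked by cut sites per detected peak, 11.6% in the ninth and 7.03% in the highest. In untreated multiome cells it was 0.209% in the lowest and 4.80% in the highest group.

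The gene activity total, the sum over genes of a cell's counts assigned to them, was higher per cut site in cluster 15. Its median per cut site was 1.06 in eribulin scATAC cells of the cluster against 0.905 at like depth, and 1.09 in untreated scATAC cells of the cluster against 0.973. In multiome cells it was 1.01 in eribulin cells of the cluster against 0.969, and 0.999 in untreated cells of the cluster against 0.969. The total was above that of like cells in all 139 eribulin scATAC cells (95% CI 97.4 to 100), 84.8% (68.1 to 94.9) of untreated scATAC cells, 76.2% (70.9 to 80.9) of eribulin multiome cells and 69.8% (60.1 to 78.4) of untreated multiome cells. Cluster 15 ranked highest by this measure in all libraries but the untreated multiome one, where it was the third of 10. The number of genes with activity was above that of like cells in 97.8% (93.8 to 99.6) of eribulin and 60.6% (42.1 to 77.1) of untreated scATAC cells of the cluster, and in 78.5% (73.4 to 83.0) of eribulin and 54.7% (44.8 to 64.4) of untreated multiome cells of the cluster.

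TSS enrichment showed no shared direction. In eribulin scATAC cells of the cluster its median was 5.28, against 5.04 at like depth, and 69.1% (60.7 to 76.6) of the cells lay above their like cells. In untreated scATAC cells of the cluster it was 4.87, against 5.0, and 21.2% (8.98 to 38.9) lay above. In multiome cells the share above was 52.6% (46.9 to 58.4) in eribulin and 50.0% (40.1 to 59.9) in untreated cells. The median ratio to like cells lay between 0.967 and 1.04 in the 4 libraries. It was the lowest of 11 clusters in untreated scATAC and ranked 3 of 11 in eribulin scATAC cells.

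**Figure D4:**
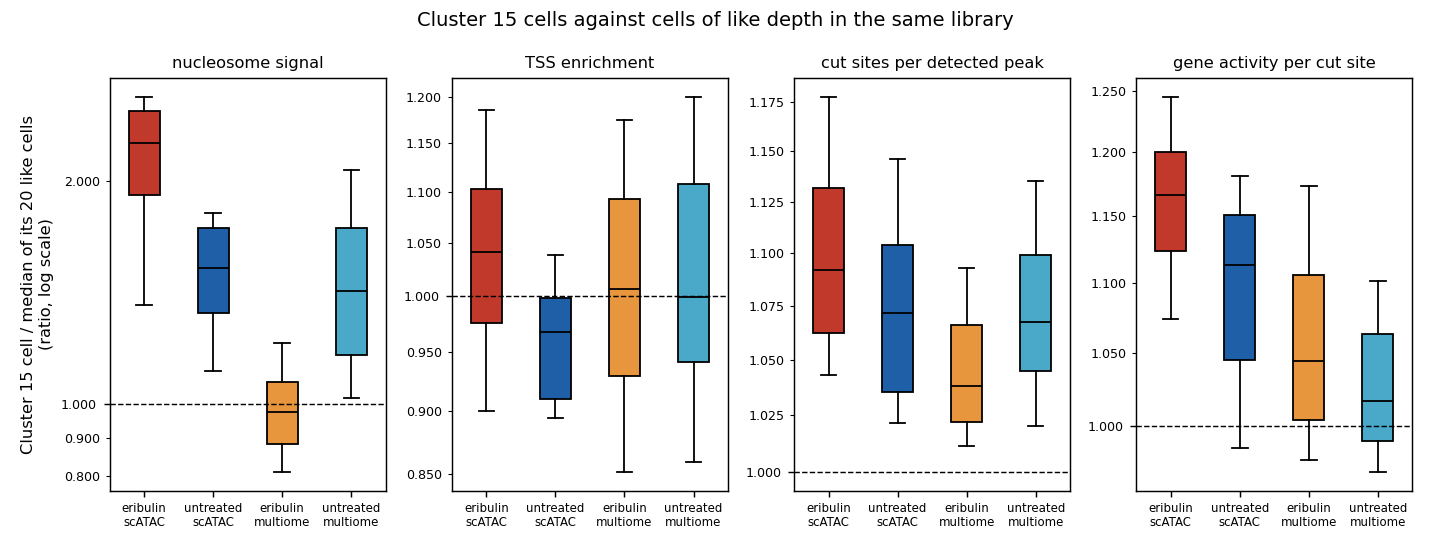
Each cluster 15 cell divided by the median of its 20 like cells (ratio, log scale) for nucleosome signal, TSS enrichment, cut sites per detected peak and gene activity per cut site, by library; boxes give the median and quartiles, whiskers the range from 10% to 90% of cells, and the dashed line a ratio of 1. Cut sites per detected peak lie above 1 in all 4 libraries, with medians from 1.04 to 1.09, whereas the nucleosome signal of eribulin multiome cells lies around 0.976.

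Compact and scattered cells were then described apart, a division made after the map was seen and built on the cluster itself. Where the nucleosome signal was raised, it was raised most in the compact group. Its median was 1.76 in compact and 0.935 in scattered eribulin scATAC cells, 1.84 and 1.53 in compact and scattered untreated scATAC cells, and 1.48 and 1.04 in compact and scattered untreated multiome cells. In eribulin multiome cells it was 0.653 in compact and 0.652 in scattered cells. The compact group therefore joined eribulin multiome cells with an ordinary nucleosome signal to cells of the other 3 libraries with a high one.

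Cut sites per detected peak were raised in both sets of cells. The median ratio to like cells was 1.1 in compact and 1.07 in scattered eribulin scATAC cells, and 1.07 and 1.06 in compact and scattered untreated scATAC cells. It was 1.06 and 1.02 in compact and scattered eribulin multiome cells, and 1.09 and 1.04 in compact and scattered untreated multiome cells. All compact cells of the 4 libraries lay above their like cells in this measure, as did all scattered cells but 6 of the 129 in the eribulin multiome library.

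Compact cells were also deeper, except in the eribulin multiome library. In scATAC their median was 21754 cut sites against 11301.5 in scattered eribulin cells, and 15809 against 10077 in scattered untreated cells. In multiome cells it was 4482 in compact and 4550 in scattered eribulin cells, and 6790 in compact and 3457 in scattered untreated cells. All 11 compact cells of the untreated scATAC library were deeper than the median of that library's other cells (95% CI 71.5 to 100).

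**Figure D5:**
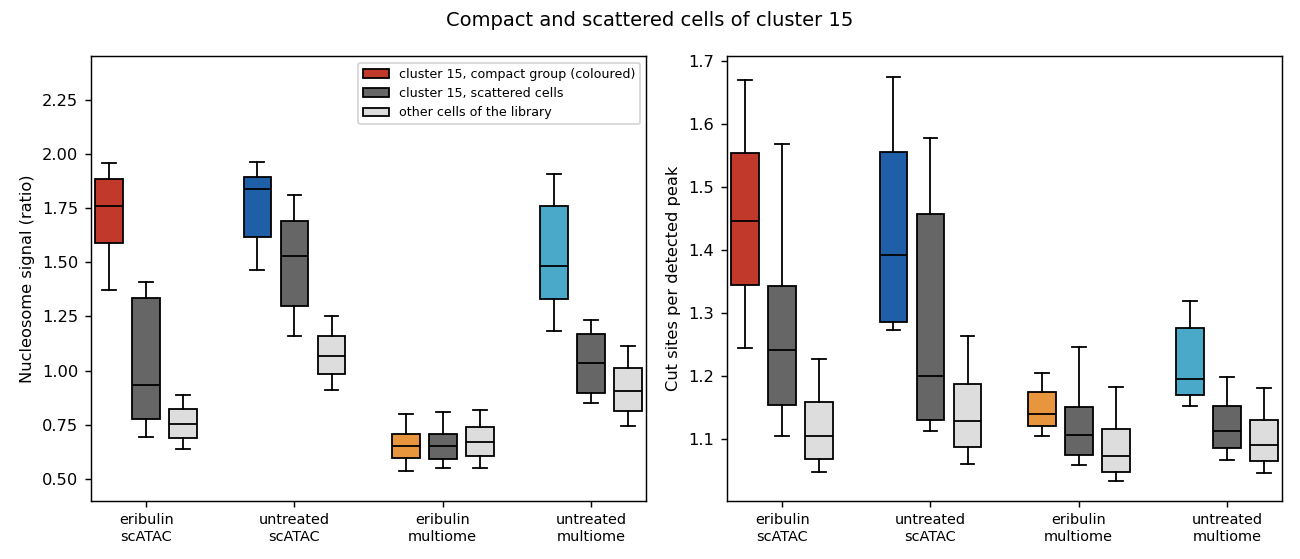
Nucleosome signal (ratio) and cut sites per detected peak in the compact cells of cluster 15 (coloured boxes), its scattered cells (dark grey) and the other cells of the library (light grey), by library; boxes give the median and quartiles, whiskers the range from 10% to 90% of cells. Compact cells are highest in both measures except for the nucleosome signal of eribulin multiome cells, with a median of 0.653.

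The cells carried lentiviral barcodes, DNA tags passed on at division, and a droplet in which several tags were read could be called a doublet or multiplet. In the untreated multiome library 14 of the 106 cluster 15 cells were called doublet (13.2%, 7.41 to 21.2), against 6.91% of the other cells and 6.08% at like depth. Another 2 were called multiplet (1.89%, 0.229 to 6.65), against 2.05% of the other cells. Together the calls reached 15.1% (8.88 to 23.4), against 8.96% of the other cells and 8.87% at like depth. The interval of the doublet share lay above both comparison shares, while that of the joint share began at 8.88%, between the share at like depth and that of the other cells. Without cells called negative, which were fewer in the cluster, the joint share of the 76 remaining cluster 15 cells was 5.72 points above that at like depth (95% CI -2.79 to 16.6), an interval that includes 0.

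No such excess was seen in the eribulin multiome library. None of its 302 cluster 15 cells was called doublet or multiplet, which allows a share of up to 0.993%, against 0.794% of the other cells and 0.579% at like depth. The unmapped call was given to 2 eribulin (0.662%) and 1 untreated (0.943%) multiome cells of the cluster, against 0.474% and 0.580% of the other cells of these libraries. In scATAC, where 5 eribulin and 1 untreated cells were called doublet in all, every cluster 15 cell was called negative. Barcode calls can show cells with different tags only, so doublets of 1 lineage and of untagged cells were not measured. Whether a doublet call stood for several cells or for 1 cell with several tags was not tested.

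Nucleosome signal and depth were then compared between the calls. In untreated multiome cells of cluster 15 its median was 1.35 in the 14 doublets (quartiles 1.16 and 1.62), 1.33 in the 59 cells with 1 barcode (1.04 and 1.56) and 1.22 in the 30 negative cells (0.960 and 1.51). The doublets had a median of 4929 cut sites, the cells with 1 barcode 6046 and the negative cells 3781. Of the 16 doublet and multiplet cells, 11 were compact and 5 scattered, against 63 and 43 of all 106 cluster 15 cells of that library. The quartile ranges of the nucleosome signal overlapped between these calls, and quartiles of depth were not compared.

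Calls of exactly 1 barcode were made for 63 of the 302 eribulin multiome cells of the cluster (20.9%, 16.4 to 25.9), against 17.0% of the other cells, and for 59 of the 106 untreated multiome cells (55.7%, 45.7 to 65.3), against 49.7%. Negative calls were less frequent in untreated multiome cells of the cluster, 28.3% (20.0 to 37.9) against 40.7% of the other cells and 40.9% at like depth.

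The eribulin multiome cells of cluster 15 came from the lineages that were frequent in that library as a whole. Their 63 called cells carried 10 barcodes, and the 1328 other called cells carried 27. Barcode 76-49517, its name giving both parts of the tag, was called in 21 of them (33.3%, 22.0 to 46.3), against 31.4% of the other called cells. Barcode 6-93034 was called in 14 (22.2%, 12.7 to 34.5), against 29.3%. Barcode 95-33662 was called in 9 (14.3%, 6.75 to 25.4), against 12.6%, and barcode 55-23349 in 8 (12.7%, 5.65 to 23.5), against 10.4%. Barcode 55-98358 was called in 4 (6.35%, 1.76 to 15.5), against 3.16%, and barcode 39-41529 in 3 (4.76%, 0.993 to 13.3), against 5.87%. The 5 barcodes most frequent among the other cells made up 87.3% (76.5 to 94.4) of the called cluster 15 cells and 89.5% of the others, which lies inside the interval. Compact cells carried 13 of the 21 calls of 76-49517 and 9 of the 14 of 6-93034, near their share of all called cells of the cluster, 38 of 63.

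The untreated multiome cells of the cluster were spread over many lineages, as were the other cells of that library. Among the 4713 other called cells there were 482 barcodes, and the 5 most frequent made up 11.9% of those cells. The same 5 made up 15.3% (7.22 to 27.0) of the called cluster 15 cells. These 59 called cells carried 45 barcodes, 36 of them in 1 cell and 8 in 2 cells. Barcode 30-58918 was the exception, with 7 cells (11.9%, 4.91 to 22.9), against 1.91% of the other called cells, which it had mostly in cluster 6. Of its 7 cells, 4 were compact and 3 scattered, against 37 and 22 of the 59 called cells. It was singled out among 45 barcodes by its count, so its interval is too narrow for a comparison.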

How the data were processed

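The 4 libraries were analysed from a deposited table of 43782 cells and one of UMAP positions. Run 1 went through cellranger-atac 1.2.0, run 3 went through cellranger-arc 1.0.0, both on mm10, and cells were analysed in Signac 1.1.1 with LSI components 2 to 30, per the series' design text. The sources used here do not describe the integration or the barcode calling. Cut sites in peaks, peaks detected and gene activity totals are the deposited counts, whole numbers with no normalization. Nucleosome signal and TSS enrichment, identified per the file headers, are a ratio computed by the authors in each cell. Percentiles deposited beside them are a fraction and were not compared. UMAP positions deposited by the authors are a score. Barcode sequences, genes and peaks were not analysed here.

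Groups came from sample titles, and each is 1 library, so no test was made: cells are not replicates. Like cells were the 20 cells of the same library outside cluster 15 nearest in log10 cut sites. The farthest of them differed by over 10% in cut sites for 3 eribulin and 2 untreated scATAC cells, and 1 untreated scATAC cell was deeper than all others of its library. Matching was tested on simulated data with known answers. The simulated depths were not those of these libraries, so the matches of the deepest scATAC cells were not checked in this way. No doublet caller was run, and cells called doublet were kept except where an alternative left them out. Barcodes with at least 3 cluster 15 cells in a library are named by the numbers of their tag. Where 0 cells were counted, 3 counts set the limit, a one-sided bound that lies below the upper end of the two-sided exact interval. The cluster, its comparisons and the barcode rule were chosen with earlier results of these data known, and the split into compact and scattered cells after the map was seen. Calculations used scipy 1.17.1, numpy 2.4.6 and pandas 2.3.3 under Python 3.11.15, and matplotlib 3.10.9 drew the figures.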

Additional observations from a re-analysis of the deposited data

Results flagged for a closer look

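In 3 measures the eribulin minus untreated difference between medians of cluster 15 cells ran in opposite directions in the 2 protocols, each with 1 library per condition, and the difference between protocols was not tested. For the nucleosome signal it was 0.0903 in scATAC (1.72 in eribulin and 1.62 in untreated cells) and -0.621 in the multiome libraries (0.652 in eribulin and 1.27 in untreated cells). For cut sites per detected peak it was 0.128 in scATAC and -0.0410 in the multiome libraries. For gene activity per cut site it was -0.0277 in scATAC and 0.0151 in the multiome libraries. Depth differed as well in scATAC, by 5357 cut sites between the eribulin and untreated medians of the cluster, against 71 in the multiome libraries, and its part in these differences was not tested.

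TSS enrichment was higher than in cells of like depth in eribulin scATAC cells of the cluster, with a median difference of 0.210, and lower in untreated scATAC cells of the cluster, with -0.164. That difference between conditions was not tested either, and the untreated value rests on 33 cells.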

How the results depend on the processing

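Of 160 alternatives to 30 results, 126 left the result where it was, 30 moved it and 4 reversed it. Reversed means that the main interval excluded 50% and the alternative's value lay on the other side of it, whatever the alternative's own interval. Values that crossed 50% from a main interval including it were not counted as reversed. For the doublet or multiplet differences 0 took the place of 50%, and shares of a library could only stay or move. The causes were not tested beyond what each alternative's construction shows. Cluster 15 was also set against all other cells in place of like cells, so that depth was not matched. This reversed the share with more peaks detected to 93.5% in eribulin scATAC and 69.7% in untreated scATAC cells. That share crossed to 50.7% (44.9 to 56.4) in eribulin multiome cells and moved to 45.3% (35.6 to 55.2) in untreated multiome cells. Both of these intervals include 50%. The same alternative carried the share with a higher gene activity total to 47.2% (37.4 to 57.1) in untreated multiome cells, an interval that includes 50%. It moved that share to 94.2% in eribulin scATAC and 54.3% in eribulin multiome cells. Matching on peaks detected gave 97.0%, 91.7% and 96.2% for that total in untreated scATAC, eribulin multiome and untreated multiome cells, and 39.4% for TSS enrichment in untreated scATAC cells. Among compact cells alone, the share deeper than the other cells was 98.3% in eribulin scATAC, 100% in untreated scATAC and 60.3% in untreated multiome cells; the share with a higher nucleosome signal was 98.3%, 100% and 98.4% in the same libraries; and 0% of untreated scATAC and 0% of eribulin multiome cells had more peaks. Among scattered cells alone, the share deeper was 61.1% in eribulin scATAC and 27.9% in untreated multiome cells, and the share with a higher nucleosome signal 72.2% and 81.4%. TSS enrichment was higher in 55.6% of scattered eribulin scATAC and 46.5% of scattered eribulin multiome cells, peaks detected in 4.65% of scattered eribulin multiome cells and gene activity in 58.1% of scattered untreated multiome cells. Among cells at or above the library's median depth, cluster 15 was 1.55% of eribulin scATAC cells. With clusters weighted equally, 47.0% of its eribulin multiome cells were deeper. With neighbours from the own library only, 63.6% of eribulin multiome cells were compact. For untreated scATAC cells the share was 0%, but that library had 11 compact cells, too few to make up most of 30 neighbours. None of its 22 scattered cells lay within the compact distance, so this 0% was all but fixed by the number of cells. The doublet or multiplet share minus that of like cells in eribulin multiome cells was -0.861 points with 5 like cells, -0.649 with 50 and -4.62 without negative cells, against a main value of -0.579. In untreated multiome cells it was 6.23 points (95% CI 0.013 to 14.5), and 5.72 (-2.79 to 16.6) without negative cells. The eribulin and untreated libraries of each run were set side by side; a model of treatment and protocol over the 4 libraries would leave 1 residual degree of freedom and was not fitted. Counting error limits the untreated scATAC values most, with 33 cells.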

Other observations

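The area of the compact group also held cells of other clusters in both eribulin libraries. Within 0.962 UMAP units of the cluster's median position, the distance that takes in 90% of compact cells, lay 410 cells, of which 348 were in cluster 15. The cluster took 97 of the 154 eribulin scATAC cells there, all 7 untreated scATAC cells, 182 of the 187 eribulin multiome cells and all 62 untreated multiome cells.

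Cells with a nucleosome signal above 1.5 lay on both sides of the cluster's border in 2 libraries. In untreated scATAC the 21 such cells of cluster 15 had medians of 17736 cut sites and 1.40 cut sites per detected peak, and the 86 outside it had 4296 and 1.07. In eribulin multiome the 3 such cells of cluster 15 had medians of 6418 and 1.17, and the 31 outside it had 5030 and 1.08.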
